A study of Homo sapiens with 2 samples.

Results

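HOX cluster genes encode homeodomain transcription factors that sit side by side in 4 clusters, HOXA on chromosome 7, HOXB on chromosome 17, HOXC on chromosome 12 and HOXD on chromosome 2. The 38 genes described here were chosen by name, 10 of HOXA, 10 of HOXB, 9 of HOXC and 9 of HOXD, out of 19881 protein-coding genes placed on the peak list. For each gene, OTX2 peaks were sought around the transcription start site (TSS), reaching 5 kb upstream and 2 kb downstream, with the TSS taken as the 5' end of the GENCODE gene record on GRCh38, and all peaks of each whole cluster with 50 kb on either side were collected as well.

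HOX proteins give the embryo its head-to-tail identity, and genes that share a place in the cluster, called a paralog group, tend to act at the same level of the body axis. Group 1 genes act in the hindbrain and group 13 genes in the tail, the distal limb and the urogenital tract, and the order of the genes along the chromosome matches the order of their domains. OTX2 is a homeodomain factor of the head that works in the forebrain and midbrain, ahead of the HOX domain, and is expressed or amplified in many medulloblastomas, whose tissue of origin, the cerebellum and its neighbouring hindbrain, lies near the front edge of that domain.

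The data were OTX2 chromatin immunoprecipitation and sequencing (ChIP-Seq) peaks from D283, an established medulloblastoma cell line with features of Group 3 and Group 4 tumours, grown as tumorspheres in ultra low-attachment plates with EGF and bFGF. The tumorspheres were the untreated OTX2-expressing controls, without knockdown or drug, and the antibody was raised in rabbit. The second library, Input, came from chromatin of the same kind of tumorspheres with no antibody. The series thus held 1 ChIP and 1 Input library from a single cell line, so replicate error is unknown throughout, and the intervals given cover counting error only.

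The ChIP library held 84980793 fragments, 61259377 after filtering, against 32292980 and 22521186 for Input, and 137412 peaks were listed. A peak of the list had a median length of 440 bp, 53 ChIP fragments over its summit and a fold enrichment over local Input of 6.10. Fragments at a summit were recovered from the deposited pileup, which had been scaled down to the depth of Input. RNA levels are not part of a peak list, so HOX expression in these tumorspheres was not analysed here.

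Start site sequences of members with and without a peak are shown first, because OTX2 binds a short core that can be looked for in them. RefSeq start sites on GRCh38.p14 matched 20 of the 38 members, with 26 distinct promoters of 250 bases before the start. The HOXD8 promoter lay whole inside a peak, 240 bases of an upstream HOXA3 promoter lay inside another, and the HOXD4 and HOXA6 promoters held a site but no peak. Capitals mark TAATCC or TAATCT on either strand (GGATTA or AGATTA on the other strand), the core that OTX-type homeodomains recognise, or, in the HOXA3 promoter, the bare homeodomain core TAAT (ATTA on the other strand).
HOXD8, GRCh38 chr2:176129455-176129704, plus strand: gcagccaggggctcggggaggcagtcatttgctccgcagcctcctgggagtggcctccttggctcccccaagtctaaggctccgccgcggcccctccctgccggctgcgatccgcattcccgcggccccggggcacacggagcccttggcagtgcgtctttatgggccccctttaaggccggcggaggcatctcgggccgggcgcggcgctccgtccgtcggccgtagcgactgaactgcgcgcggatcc
HOXA3, GRCh38 chr7:27150951-27151200, minus strand: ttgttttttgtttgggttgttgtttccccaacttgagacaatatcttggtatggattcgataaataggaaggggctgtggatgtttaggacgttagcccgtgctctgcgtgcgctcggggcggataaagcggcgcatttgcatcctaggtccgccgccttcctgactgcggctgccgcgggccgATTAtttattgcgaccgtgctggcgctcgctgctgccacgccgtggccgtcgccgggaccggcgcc
HOXD4, GRCh38 chr2:176151300-176151549, plus strand: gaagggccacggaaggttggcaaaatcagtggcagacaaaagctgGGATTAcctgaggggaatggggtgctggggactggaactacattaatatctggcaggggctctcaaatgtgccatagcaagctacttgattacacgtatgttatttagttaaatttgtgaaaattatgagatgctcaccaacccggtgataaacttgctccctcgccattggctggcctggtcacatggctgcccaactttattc
HOXA6, GRCh38 chr7:27147775-27148024, minus strand: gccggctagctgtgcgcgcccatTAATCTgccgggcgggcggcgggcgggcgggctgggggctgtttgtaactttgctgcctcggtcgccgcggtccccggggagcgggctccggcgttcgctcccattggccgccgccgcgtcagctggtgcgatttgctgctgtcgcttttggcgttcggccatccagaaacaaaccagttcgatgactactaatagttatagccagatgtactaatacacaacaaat

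The HOXD8 promoter, 72.4% G and C with 28 CpG dinucleotides, held none of these cores on either strand, although the whole window lay in a peak. The HOXA3 promoter inside a peak held 1 TAAT core, 66 bases before the start, and no longer site. In HOXD4 a GGATTA began 205 bases before the start, and in HOXA6 a TAATCT began 227 bases before the start, with no peak over either promoter. A match is a description of letters, and a window without a match says only that these letters are not in it.

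Of the 26 HOX promoters, 2 (7.69%, 95% Wilson interval 2.14 to 24.1%) overlapped a peak, against 37.9% of 21382 distinct promoters of protein-coding genes in the same RefSeq table. The matched promoters stood mostly for peak-poor chromosome 7, with 16 of HOXA (7 of them of HOXA3), 1 of HOXB, 1 of HOXC and 8 of HOXD. Of the 16 HOXA promoters 1 (6.25%, 1.11 to 28.3%) overlapped a peak, against 19.8% of the promoters of chromosome 7, a share inside the interval. TAATCC or TAATCT was present in 4 HOX promoters (15.4%), against 9.62% of all promoters, and the bare TAAT core in 19 (73.1%), against 40.2%. No interval was computed for these motif shares. Over all 38 members, within 1 kb on either side of the record start, 52.6% of HOX genes held TAATCC or TAATCT, against 72.9% of all genes. Those windows and genes differ from the 26 promoters, so a change of direction with width was not shown. The median G and C content of the HOX promoters was 58.8%, against 62.0%, with a median of 19.5 CpG dinucleotides per promoter, against 17.

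In the wider window of 7 kb around the gene record's start, OTX2 peaks were found at 16 of the 38 HOX genes (42.1%, with a 95% Wilson interval of 27.9 to 57.8%), against 57.2% of all 19881 protein-coding genes. The interval of the members reached above the share of all genes, so a lower share near HOX genes could not be told from counting error in this window. Neighbouring HOX windows overlap (266.0 kb when summed and 239.1 kb when merged) and 2 peaks lay in the windows of 2 genes each, so the genes are not independent and the interval is too narrow. The peaks that were there were of low height. The median of each gene's highest fold enrichment was 4.77 in the 16 HOX genes and 6.39 in all protein-coding genes with a peak, and 7 of the 16 (43.8%) reached a fold of 5, against 67.3%.

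The share depended on how near and how high a peak had to be. Within 1 kb on either side of the start, 7 of 38 HOX genes (18.4%, 9.22 to 33.4%) had a peak, against 46.9% of all genes. Counting peaks with a fold enrichment of at least 5 in the wide window also left 7 of 38 (18.4%, 9.22 to 33.4%), against 38.5%. In both settings the share of all genes lay above the interval of the members, with the limit of overlapping windows that was given above. HOXA6, HOXA13, HOXC5, HOXC8, HOXC13, HOXD8 and HOXD9 had the peaks within 1 kb, and no HOXB gene did.

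**Figure D1:**
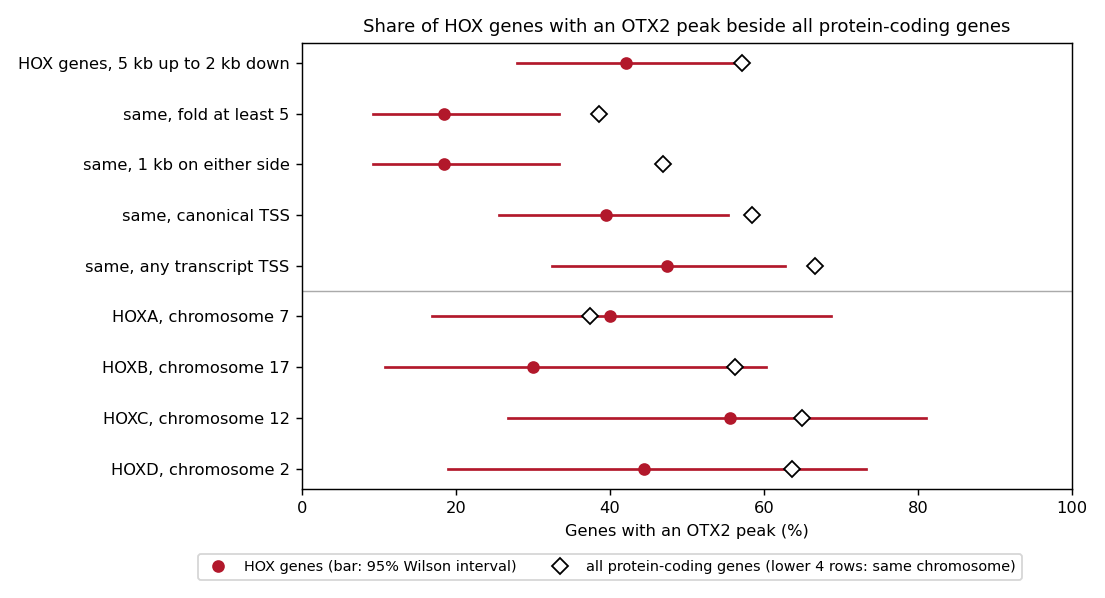
Share of genes with an OTX2 peak, in percent, for the 38 HOX genes under 5 rules (upper part) and for each cluster beside its own chromosome (lower part). Filled points are HOX genes with 95% Wilson intervals and open diamonds are all protein-coding genes, and the HOX point lies at 42.1% against 57.2% in the wide window and at 18.4% against 46.9% within 1 kb, while HOXA at 40.0% lies beside 37.4% for chromosome 7.

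The 4 clusters lie on chromosomes with different peak densities, so each was set beside its own chromosome. Chromosome 7 is poor in peaks, and 37.4% of its protein-coding genes had one. Against that share, 4 of 10 HOXA genes (40.0%, 16.8 to 68.7%) had a peak. For HOXB the share was 3 of 10 (30.0%, 10.8 to 60.3%), with 56.2% for chromosome 17. HOXC had 5 of 9 (55.6%, 26.7 to 81.1%), with 64.9% for chromosome 12, and HOXD had 4 of 9 (44.4%, 18.9 to 73.3%), with 63.6% for chromosome 2. Each chromosome's share lay inside the interval of its cluster, so with 9 or 10 genes per cluster no difference from the chromosome was detectable, and the 4 intervals overlapped each other. Without chromosome 7 the HOX share was 12 of 28 (42.9%).

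HOXA held the highest peak in a member's window. HOXA9, a gene of posterior patterning that also drives leukaemias, had 97 ChIP fragments (78.7 to 118) over a summit 2803 bp upstream of its record start, with a fold of 13.9 and a −log10 q of 57.9. This peak, at chr7:27177780-27178202, lay in an intron of HOXA10, a gene of the uterus and limb, and its nearest edge was 2059 bp downstream of the HOXA10 record start, past the 2 kb limit of the window. The HOXA10 record starts 5941 bp ahead of its canonical transcript, the one that the annotation marks as representative. Counted from the start of the canonical transcript, the same summit lay 3663 bp upstream of HOXA10 and inside its window, while HOXA9 lost its peak. The assignment to HOXA9 or HOXA10 therefore turned on the transcript.

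HOXA13, which shapes hand, foot and genital tract, had 50 fragments over a summit 977 bp upstream and a fold of 7.57. HOXA3, needed for thymus and parathyroid, and HOXA6, a trunk gene, shared 1 peak of 35 fragments and a fold of 4.46, the peak that covers the HOXA3 promoter printed above. Its summit lay 1527 bp downstream of the HOXA3 start and 453 bp upstream of the HOXA6 record start. HOXA2, which sets the identity of the second pharyngeal arch, was 48275 bp from the nearest peak. For HOXA4, a cervical and trunk gene, that distance was 20181 bp, and for HOXA5, of lung and rib patterning, 7280 bp. HOXA7, a trunk gene, and HOXA11, of the forearm and uterus, had none in their windows either, with gaps of 6676 and 7030 bp.

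In HOXB a single peak accounted for both HOXB3, a hindbrain and neck gene, and HOXB6, a trunk gene. It held 51 fragments with a fold of 6.72, its summit lay 2105 bp downstream of the HOXB3 record start and 2185 bp downstream of the HOXB6 start, and it reached into both windows by its edge alone. With the summit required to lie in the window, 1 of 10 HOXB genes was left, HOXB13. That gene of the prostate and hindgut had 44 fragments over a summit 2223 bp upstream but a fold of 3.34, since local Input there was 9 on the scale of the pileup, where most HOX peaks stood near 4 or 5.

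Apart from HOXB3, the HOXB genes of groups 1 to 5 had no peak in their windows. HOXB1, the gene of the facial nerve segment of the hindbrain, was 71642 bp from the nearest peak, the longest distance among the 38 members. HOXB2, which acts beside it in the hindbrain, was 57544 bp away, HOXB4, known from blood stem cells, 24303 bp, and HOXB5, of the enteric nervous system, 8874 bp. The trunk and spinal cord genes HOXB7, HOXB8 and HOXB9 lay 28164, 12248 and 23314 bp from a peak. From HOXB1 to HOXB9, 97.8 kb with 9 of the cluster's members, there was 1 peak, the one at HOXB3 and HOXB6.

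HOXC had the most genes with a peak and the most peaks per gene. HOXC8, which patterns brachial motor neurons and ribs, had 3 peaks in its window. The first held 74 fragments (58.1 to 92.9) over a summit 2613 bp upstream, with a fold of 9.24. The others lay 607 and 1811 bp downstream of the start with 31 and 23 fragments and folds of 4.76 and 3.44.

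HOXC5 had 2 low peaks on either side of its start, 526 bp upstream with 25 fragments and a fold of 3.89, and 369 bp downstream with 22 fragments and a fold of 3.44. HOXC13, the hair and nail gene, had 25 fragments 291 bp upstream and a fold of 3.89. HOXC6, of the brachial level, had 42 fragments over a summit 1336 bp upstream of its record start and a fold of 5.31.

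HOXC4 showed how long gene records bear on the call. Its record starts 36904 bp ahead of its canonical start, and around the record start lay 21 fragments 2375 bp upstream (fold 3.29) and 34 fragments 1975 bp downstream (fold 5.21). At the canonical start a different peak, of 29 fragments and a fold of 3.72, had its summit 85 bp downstream. HOXC9, a gene of thoracic motor columns, had no peak in the record's window, and a peak of 49 fragments and a fold of 7.43 lay 438 bp upstream of its canonical start. HOXC10 and HOXC11, of the lumbar level, missed by little, with gaps of 4000 and 2399 bp downstream of their starts, and HOXC12 lay 10061 bp from a peak.

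HOXD was the cluster whose windows held low peaks throughout, and no HOXD gene reached a fold of 5 around its record start. HOXD8, a trunk gene, had 36 fragments 2440 bp upstream (fold 4.58) and 31 fragments 69 bp upstream (fold 4.77), the peak over the promoter printed above. HOXD9, a gene of limb and lumbar patterning, had 26 fragments 116 bp upstream with a fold of 3.35 and a −log10 q of 4.61, the one member lost when a −log10 q of 5 was asked for. HOXD12, a limb gene, had 31 fragments 1997 bp upstream and a fold of 4.77, and HOXD3, of the cervical vertebrae, had 26 fragments 3619 bp upstream of its record start and a fold of 4.03.

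HOXD3 had a much higher peak at its canonical start, which lies 20695 bp downstream of the record start. That peak, at chr2:176158880-176159371, held 105 fragments (85.9 to 127) with a fold of 15.7 and a −log10 q of 67.1, and its summit lay 1760 bp downstream of the canonical start in an intron of HOXD3. HOXD1, the group 1 gene at the end of the cluster, was 29297 bp from a peak. HOXD4, a hindbrain gene, was 7330 bp away, HOXD10 and HOXD11 of the limb 10872 and 6298 bp, and HOXD13, the gene of the digits, 4942 bp.

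**Figure D2:**
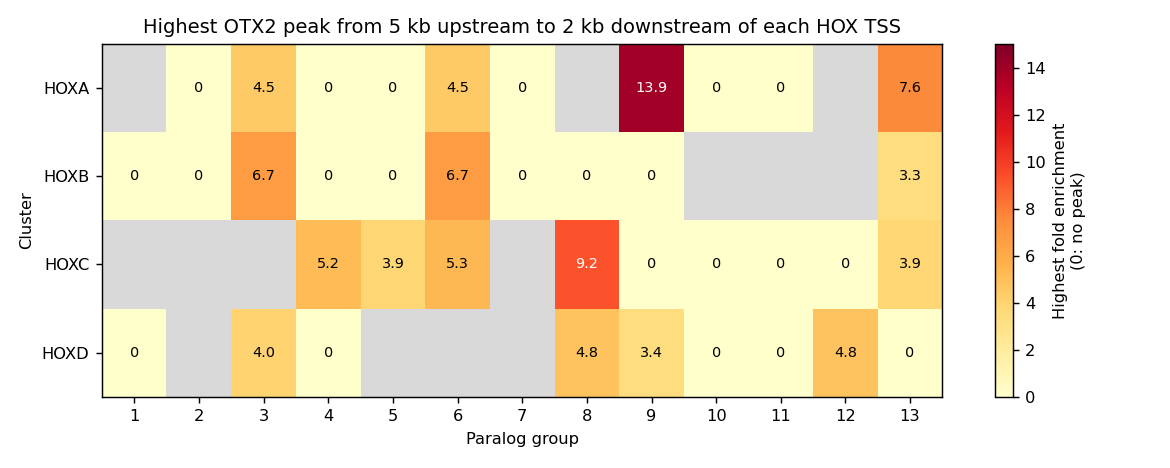
Highest OTX2 fold enrichment in the window (5 kb upstream, 2 kb downstream) of each member's record start, by cluster (vertical) and paralog group (horizontal); 0 means no peak, and grey cells have no member. Groups 3 and 6 have a peak in 3 of 3 members and groups 1, 2, 7, 10 and 11 in none, beside 57.2% of all protein-coding genes. The highest values are 13.9 at HOXA9 and 9.24 at HOXC8.

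By paralog group, 3 of 3 genes of group 3 (HOXA3, HOXB3 and HOXD3), 3 of 3 of group 6 (HOXA6, HOXB6 and HOXC6) and 3 of 4 of group 13 (HOXA13, HOXB13 and HOXC13) had a peak. In groups 1, 2, 7, 10 and 11 none of the 2, 2, 2, 3 and 3 members did. The 57.2% of all genes lay inside the intervals of 3 of 3 (43.9 to 100%) and 0 of 2 (0 to 65.8%). It lay just above that of 0 of 3 (0 to 56.1%). From canonical starts HOXB3 and HOXC6 lost their peak and HOXA10 gained one, which changed groups 3, 6 and 10. Groups 3 and 6 were not independent of each other, because the HOXA3 and HOXA6 windows held the same peak and so did the HOXB3 and HOXB6 windows. Groups 8, 9, 12, 5 and 4 had 2 of 3, 2 of 4, 1 of 2, 1 of 3 and 1 of 4. Pooled by level of the body axis, 3 of 7 genes of groups 1 to 3 (42.9%), 7 of 15 of groups 4 to 8 (46.7%, 24.8 to 69.9%) and 6 of 16 of groups 9 to 13 (37.5%, 18.5 to 61.4%) had a peak, intervals that overlapped widely.

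The choice of start site moved single genes more than the total. From canonical transcript starts, 15 of 38 genes (39.5%, 25.6 to 55.3%) had a peak, against 58.5% of all genes. From any annotated transcript start 18 of 38 did (47.4%, 32.5 to 62.7%), against 66.6%. Both shares of all genes lay above the interval of the members, an interval that overlapping windows make too narrow. Of the members, 13 had a peak by the record and by the canonical start, HOXA9, HOXB3 and HOXC6 by the record alone, HOXA10 and HOXC9 by the canonical start alone, and 20 by neither. The record start lay over 1 kb from the canonical one in 12 members. Of the 22 members without a peak in the record's window, 17 lay more than 5 kb from the nearest one.

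Over the whole clusters with 50 kb on either side there were 39 peaks, 19 in a member's window and 20 in none. Their median fold was 4.77, their median height 35 fragments and their median length 342 bp, each below the medians of the list, and 25 of the 39 lay below the list's median fold. A fold of at least 5 was reached by 46.2% of them, against 62.9% of the list, and a fold of at least 10 by 10.3%, against 26.3%. By cluster with flanks, the median fold was 7.57 in HOXA, above the list's 6.10, but 3.83 in HOXB, 4.76 in HOXC and 4.68 in HOXD. Between the outermost genes it was 4.10 in HOXA and 6.72 in HOXB, and the same as with flanks in HOXC and HOXD. Local Input was at the floor of the peak caller at 22 of the 39 (56.4%), against 32.5% of the list. A value at the floor does not give the Input at the peak itself, and the part of Input in the folds was not tested. Summits lay in an exon in 11 cases, in an intron in 19 and outside genes in 9.

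**Figure D3:**
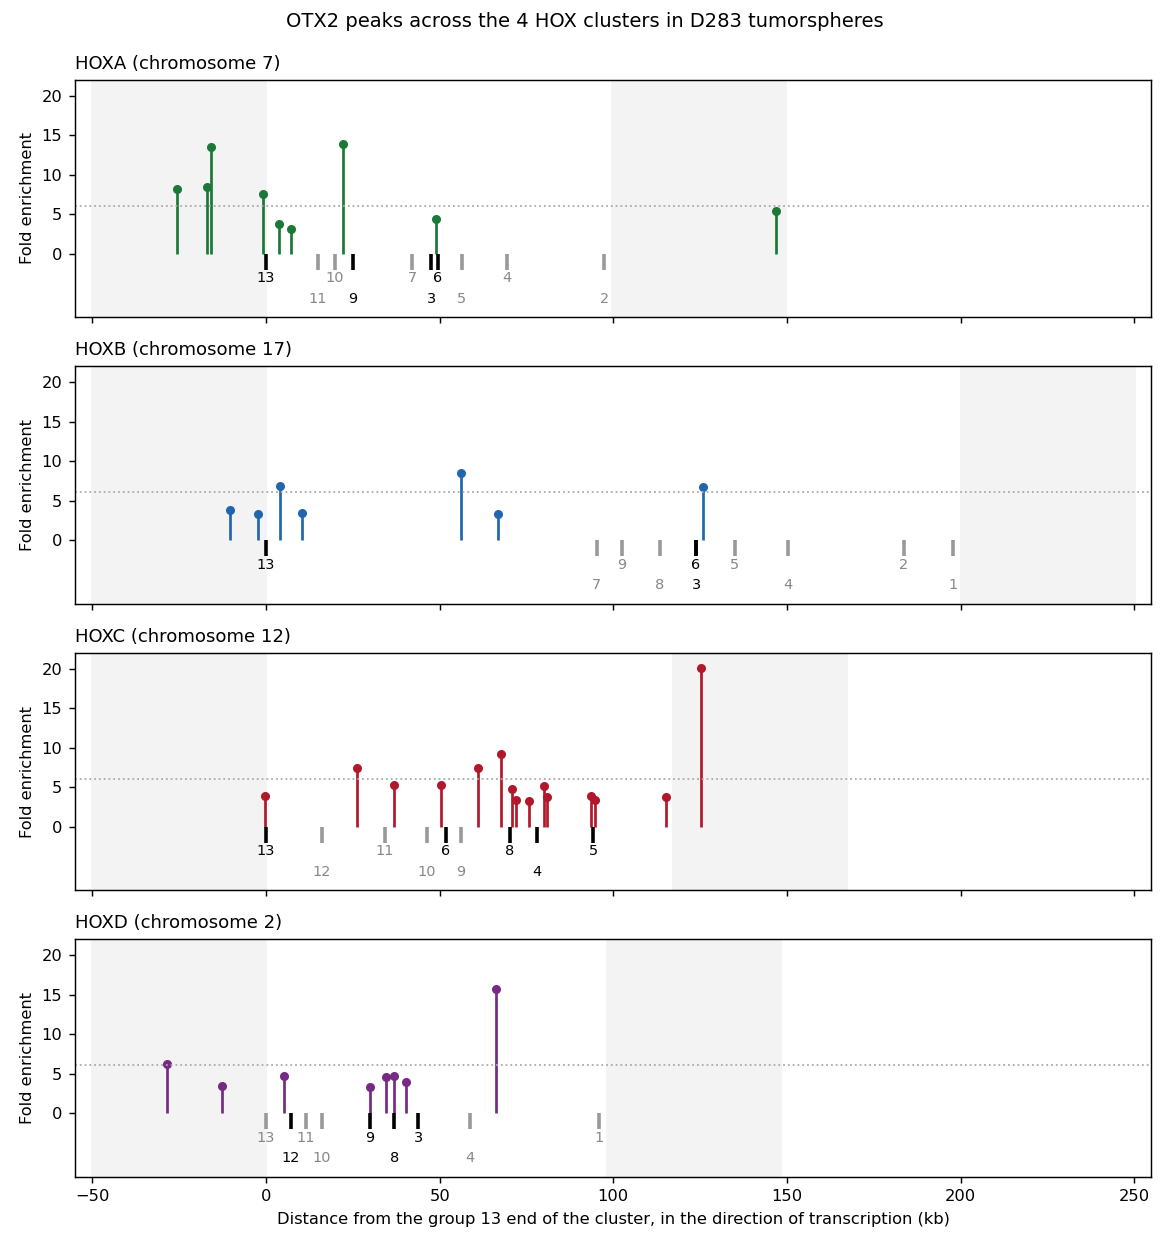
OTX2 peaks along the 4 HOX clusters and 50 kb on either side (shaded), as fold enrichment (vertical) by distance from the group 13 end in kb, read in the direction of transcription; ticks with group numbers mark member record starts, black with and grey without a peak in the window, and the dotted line is the median fold of the list, 6.10. The right part of HOXB is empty from HOXB5 to HOXB1, HOXC has the most peaks between its genes, 13, and the highest point, 20.1, lies beyond the group 4 end of HOXC.

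Between the outermost genes HOXC was densest. It held 13 peaks in 117 kb, 11.1 per 100 kb (exact Poisson interval 5.91 to 19.0), which lay above the 5.63 per 100 kb of chromosome 12 as a whole. HOXD held 6, or 6.11 per 100 kb (2.24 to 13.3), beside 4.79 for chromosome 2. HOXA held 4, or 4.01 (1.09 to 10.3), beside 2.73 for chromosome 7, and HOXB held 5, or 2.50 (0.811 to 5.83), beside 5.55 for chromosome 17. The chromosome's density lay inside the interval of HOXA, HOXB and HOXD.

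With the flanks HOXA and HOXD changed places in the order. HOXC had 15 peaks, 6.91 per 100 kb (3.87 to 11.4), or 1.23 times its chromosome. HOXA had 9, 4.51 per 100 kb (2.06 to 8.55), which was 1.65 times the density of chromosome 7. HOXD had 8, 4.04 per 100 kb (1.74 to 7.95), at 0.842 times, and HOXB had 7, 2.33 per 100 kb (0.937 to 4.80), at 0.420 times, the one cluster whose chromosome lay above its interval. With 100 kb on either side HOXB rose to 14 peaks, 3.50 per 100 kb (1.91 to 5.87), an interval that held the 5.55 of chromosome 17. HOXA thus held fewer peaks per 100 kb than HOXC and more than its own chromosome by ratio, within counting error.

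Gene-bearing stretches of the same chromosomes gave a like picture. Tiles of 100 kb with at least 1 protein-coding TSS held a median of 2 peaks on chromosome 7 (quartiles 1 to 4), 6 on chromosome 17 (3 to 9), 6 on chromosome 12 (3 to 10) and 5 on chromosome 2 (3 to 8). HOXA with its flanks lay above the upper quartile of its chromosome, HOXC and HOXD lay between the quartiles and HOXB lay below the lower one.

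Within a cluster, peaks were also counted by the paralog group of the nearest record start. Of the 13 peaks between the outer HOXC genes, 10 had a gene of groups 4 to 8 nearest, while in HOXA 3 of 4 had a gene of groups 9 to 13. In HOXD 4 of 6 lay nearest to groups 4 to 8, among them the HOXD3 intron peak, which is nearest to HOXD4 by record start and to HOXD3 by canonical start. In HOXB the counts were 1, 2 and 2 for groups 1 to 3, 4 to 8 and 9 to 13. These counts depended on the start as well. By canonical start the peak shared by HOXB3 and HOXB6 was nearest to HOXB6, and the peaks in LINC02086 to HOXB9 instead of HOXB7. Likewise the peak shared by HOXA3 and HOXA6 moved from HOXA6 to HOXA3, and the HOXC6 peak moved to HOXC10. The longest stretch without a peak that touched a cluster ran 265 kb through HOXB1, HOXB2, HOXB4 and HOXB5 and on past the cluster. In HOXA 97.7 kb with the record starts of HOXA2, HOXA4, HOXA5 and HOXA6 had none, and in HOXD 101 kb with that of HOXD1. In HOXC the longest such stretch was 26.3 kb, with the starts of HOXC12 and HOXC13. HOXA6 and HOXC13 stood at the edge of their stretches, 358 and 141 bp from a peak. A longer one of 158 kb lay just outside HOXC and ended at the peak upstream of HOXC13. Of 100 kb tiles with a protein-coding TSS, 9.21% held no peak on chromosome 17, 14.2% on chromosome 7, 5.53% on chromosome 2 and 5.19% on chromosome 12.

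Of the 5 highest peaks of the extended clusters, 2 lay in a member's window, those of HOXA9 and HOXC8. The highest of all, at chr12:54063541-54064347, held 300 fragments (267 to 336) with a fold of 20.1 and a −log10 q of 203, and stood at the 93.4 percentile of the list by fold. It lay in an intron of the long non-coding RNA FLJ12825, 10142 bp beyond the canonical start of HOXC4, where local Input was 10, the highest among the 39 peaks. After it came the HOXD3 and HOXA10 intron peaks described above, with folds of 15.7 and 13.9.

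The next was a peak of 90 fragments (72.4 to 111) and a fold of 13.5 at chr7:27215653-27216609, outside any gene and 15996 bp upstream of HOXA13, in the interval between HOXA13 and EVX1. It had 2 companions further upstream, 17158 and 25655 bp from HOXA13, with folds of 8.46 and 8.16. The upstream HOXC8 peak, with a fold of 9.24, was the fifth. In HOXB the highest peak, a fold of 8.47 with 67 fragments, lay 38955 bp upstream of the HOXB7 record start in an intron of LINC02086.

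Further out, over 500 kb on each side, the landscapes of HOXA and HOXB differed from side to side beyond counting error. The intervals of the sides overlapped around HOXC and were equal around HOXD. HOX clusters are flanked by regions that hold their long-range enhancers, so each side was counted apart. The group 13 side of HOXA had 22 peaks, 4.40 per 100 kb (2.76 to 6.66), and the group 1 side 6, or 1.20 (0.440 to 2.61), intervals that did not overlap. The 2.73 of chromosome 7 lay just below the interval of the group 13 side and just above that of the group 1 side. The group 13 side of HOXB had 65, or 13 (10.0 to 16.6), and its group 1 side 20, or 4.00 (2.44 to 6.18), again without overlap, and the first 150 kb on the group 1 side held none. The 5.55 of chromosome 17 lay below the interval of the group 13 side and inside that of the group 1 side.

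Around HOXC the sides had 41 peaks, 8.20 per 100 kb (5.88 to 11.1), and 55, or 11.0 (8.29 to 14.3). Both intervals lay above the 5.63 of chromosome 12. The highest peaks of these sides lay in PCBP2 and SMUG1, and a link to HOX genes was not tested. Around HOXD, whose flanking gene deserts drive expression in limb and trunk, each side had 14, or 2.80 per 100 kb (1.53 to 4.70), which lay below the 4.79 of chromosome 2. Both HOXD sides nevertheless held high peaks, the highest with folds of 33.6 and 31.1, at 306 and 303 kb from the cluster. The group 13 side held another of 32.71 at 100 to 150 kb. Beside HOXA the highest folds were 16.3 and 14.9, beside HOXB 21.3 and 30.2 and beside HOXC 28.3 and 26.3.

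**Figure D4:**
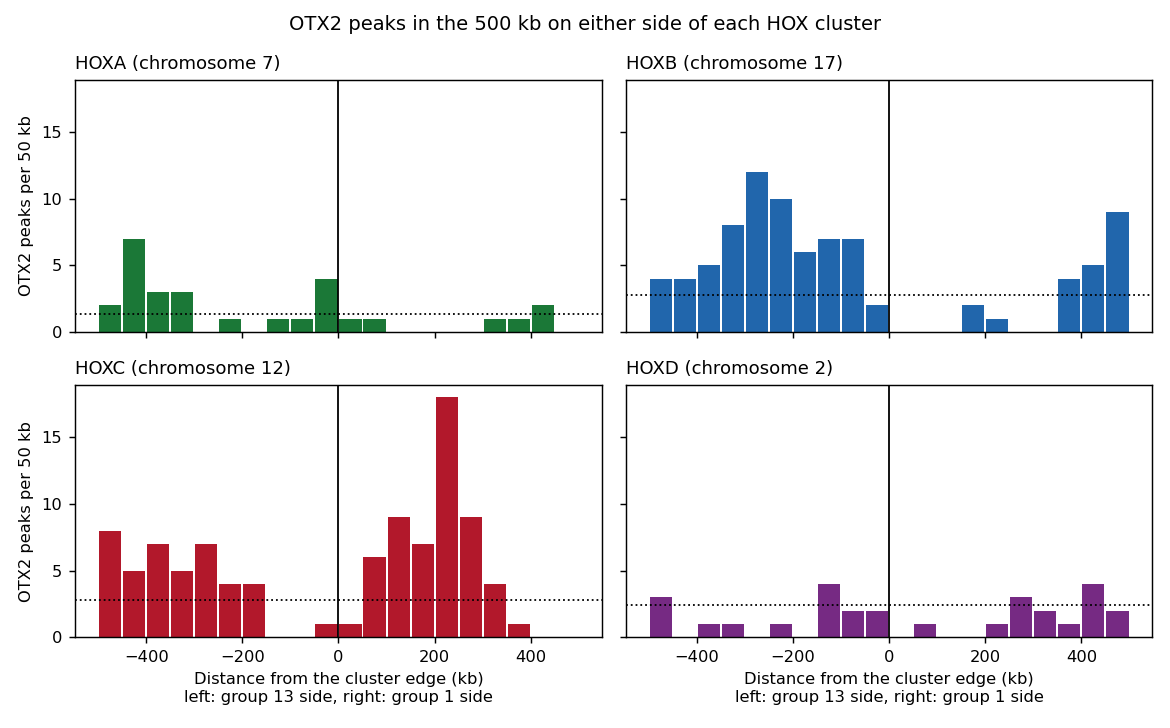
OTX2 peaks per 50 kb in the 500 kb on either side of each cluster, by distance from the cluster edge in kb (left, group 13 side; right, group 1 side; the cluster itself is left out at 0); the dotted line is the chromosome's mean per 50 kb. HOXB shows 65 peaks on the left and 20 on the right with an empty first 150 kb, and HOXA 22 and 6.

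Some microRNAs of the clusters repress HOX messengers, so the same window was searched around the 5' end of each microRNA hairpin. Distances are thus from the hairpin and not from a TSS. Of 8, 3 had a peak, against 32.2% of 1562 microRNA hairpins, namely MIR196A2 and MIR615 in HOXC and MIR3185 in HOXB. MIR196A2 had a summit 2450 bp upstream with a fold of 5.31, the peak of HOXC6, MIR615 had both HOXC5 peaks, the higher 1426 bp upstream with a fold of 3.89, and MIR3185 had 1 at 270 bp upstream with a fold of 6.91. None lay in the windows of MIR196A1, MIR196B, MIR10A, MIR10B and MIR7704. The mature sequences from RefSeq, with the seed that pairs with targets (bases 2 to 8) in capitals, show that the miR-196 microRNAs of HOXA, HOXB and HOXC share a seed, so a peak stood near 1 of 3 genes that make it, the HOXC copy.
hsa-miR-196a-5p, GRCh38 chr12:53991762-53991783, plus strand (HOXC): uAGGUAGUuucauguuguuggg
hsa-miR-196b-5p, GRCh38 chr7:27169528-27169549, minus strand (HOXA): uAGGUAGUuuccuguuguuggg
hsa-miR-10a-5p, GRCh38 chr17:48579904-48579926, minus strand (HOXB): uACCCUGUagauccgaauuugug
hsa-miR-615-3p, GRCh38 chr12:54034010-54034031, plus strand (HOXC): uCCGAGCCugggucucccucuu

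Of 35 long non-coding RNA (lncRNA) genes in the extended clusters, 14 had a peak in their windows, against 39.5% of 18702 lncRNA genes, with 8 of 10 in HOXC, where the share over chromosome 12 was 42.4%, 5 of 13 in HOXA, 1 of 8 in HOXB and 0 of 4 in HOXD. Several lncRNA genes shared a peak, and the highest peaks of the 14 were 10 distinct ones. HOTAIR, a repressive RNA transcribed antisense to HOXC11, had a summit 805 bp upstream with a fold of 5.36, the peak inside HOXC11 that HOXC11's own window missed. HOTTIP, which activates the posterior HOXA genes, had one 2207 bp upstream with a fold of 3.74, and HOXC-AS1 had 1 at 287 bp downstream with a fold of 7.43, the peak at the canonical start of HOXC9. Of 7 protein-coding neighbours 3 had a peak, PRAC1 and PRAC2 beside HOXB13 with the same peak and a fold of 6.91, and the readthrough gene ENSG00000257184 of HOXA with the HOXA10 intron peak. EVX1 and EVX2, homeobox genes at the posterior ends of HOXA and HOXD, had none in their windows. A peak with a fold of 3.44 had its summit in an exon of EVX2, outside that window.

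TAATCC and TAATCT sites in the same windows were counted on both strands in the GRCh37 sequence, where matches on opposite strands can overlap. HOX genes had a median of 3 sites per window, range 0 to 8, against 9 for all protein-coding genes, and 36 of 38 windows (94.7%) held at least 1, against 98.9%. HOXB9 and HOXD10 held none and had no peak. HOX genes with a peak had a median of 4.5 sites and those without a median of 3, and for all genes the medians were 10 and 8. HOXA4, with the most sites, 8, and HOXB1, with 6, had no peak, while HOXC13 had a peak and 1 site.

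Partners and regulators of HOX proteins, from lists set by function, were read with the same window, beside the 57.2% of all genes. Of 9 TALE cofactors, the homeodomain partners that sharpen HOX binding, 7 had a peak (77.8%, 45.3 to 93.7%), with a median highest fold of 8.66. PBX3 reached 18.4 at 2591 bp upstream, MEIS2 15.7 at 4052 bp upstream and MEIS1 11.8 at 159 bp downstream. Of 14 genes of PRC1 and trithorax, the complexes that keep HOX clusters silent or active, 13 had a peak (92.9%, 68.5 to 98.7%), the one list whose interval lay above all genes. Their median highest fold was 4.97, below the 6.39 of all genes with a peak, and with a fold of at least 5 required 6 of 14 were left (42.9%, 21.4 to 67.4%), an interval that held the 38.5% of all genes. PHC2 reached 20.9, CBX8 12.1 and KMT2A 10.9.

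Of 16 regulators that set HOX domains, retinoic acid receptors and enzymes, CDX factors and hindbrain factors, 10 had a peak (62.5%, 38.6 to 81.5%), with a median of 6.08, led by RARG at 15.1, CYP26C1 at 12.5 and RARA at 10.4. The homeobox genes most like HOX genes in sequence or kept beside them had the fewest. Of 13, 3 had a peak (23.1%, 8.18 to 50.3%), namely GSX2 with a fold of 13.8 at 2205 bp upstream, MEOX1 with 8.14 and GSX1 with 3.85 at 4 bp downstream. The interval lay below all genes. Of the 13, 4 lie on chromosome 7 with its share of 37.4%, EVX1, MNX1, GBX1 and MEOX2, and none of these had a peak. The rest lie on other chromosomes, and no share weighted by chromosome was computed for this list. With a fold of at least 5, 2 of 13 were left (15.4%, 4.33 to 42.2%), an interval that held the 38.5% of all genes. CDX1, CDX2 and CDX4, which stand in both of these lists, had none.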

How the data were processed

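OTX2 ChIP and Input libraries of D283 tumorspheres, 1 each, were mapped by the authors to GRCh38 with Bowtie2 (version 2.2.4, per the labels), and peaks were called with MACS2 (version 2.1.0.20140616) at a q-value of 0.05, with 1 duplicate kept per position and the ENCODE blacklist masked. Per the file headers, ChIP was scaled to Input, which was 2.72 times shallower. The deposited values were pileup (a signal), fold enrichment (a ratio over local Input, with a pseudocount in both) and −log10 q, and the p-values beside them were not used. All peaks were used. A fragment was worth 0.735 units of pileup, and 100.0% of the pileups were whole within 0.05 fragments. Input was recovered from pileup and fold, with a floor of 3.98 (tolerance 0.02).

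GENCODE release 44 gene records and exons were placed by the GRCh38 positions that the annotation records, so no coordinates were converted. A peak belonged to a window or cluster on an overlap of 1 bp. Shares carry 95% Wilson intervals and densities exact Poisson intervals, and no test was run, because windows of neighbouring genes overlap and there were no replicates. The tools were scipy 1.17.1, numpy 2.4.6, matplotlib 3.10.9 and pandas 2.3.3 under Python 3.11.15, and the counting was tested on simulated peaks. Every member is named, with the 5 highest peaks, the 3 highest genes of each list and the protein-coding and microRNA neighbours with a peak. Peaks between the outermost genes were counted by the paralog group of the nearest member, and not every peak is described singly. Of the lncRNA genes with a peak, values are given for HOTAIR, HOTTIP and HOXC-AS1 alone. The members and lists were chosen with earlier results of these data known. Alternatives were another threshold, window, start, flank or motif. 1 further gene of the family is not reported here.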

Additional observations from a re-analysis of the deposited data

How the results depend on the processing

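No paired analysis was possible because the series held 1 ChIP and 1 Input library and no test was run. Canonical starts, the omission of chromosome 7 and a fold of 5 for the lists of partners and regulators were chosen after seeing the data. The share of HOX genes with a peak stayed within its interval with a −log10 q of 5, a summit in the window, other starts or without chromosome 7, and fell to 18.4% with a fold of 5 and to 18.4% within 1 kb on either side. The share of all protein-coding genes, whose interval is narrow, was 52.0% with a −log10 q of 5, 38.5% with a fold of 5, 56.3% by summit, 66.6% from any start, 46.9% within 1 kb, 58.5% from canonical starts and 58.1% without chromosome 7. By summit the HOX share was 36.8% (23.4 to 52.7%), an interval below the share of all genes. With a −log10 q of 5 the HOX interval (25.6 to 55.3%) held the share of all genes.

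With a fold of 5, peaks per 100 kb fell to 0.999 in HOXB, 3.22 in HOXC and 1.01 in HOXD with the flanks, to 1.00 in HOXA, 1.5 in HOXB, 5.12 in HOXC and 1.02 in HOXD between the outermost genes, and to 4.5 for HOXB, 6 for HOXC and 1.80 for HOXD in the landscapes. A −log10 q of 5 gave 2.01 in HOXA and 1.5 in HOXB between the outermost genes. Without flanks HOXC had 11.1 and HOXD 6.11, and a flank of 100 kb brought HOXB to 3.50, where its interval held the density of chromosome 17. The highest fold of HOXC without flanks was 9.24, since the peak of 20.1 lies outside. Within 1 kb the median count of TAATCC and TAATCT sites was 1.00. Elsewhere the cause was not tested. Of 72 alternative values, 45 were classed as the same as the main value and 27 as moved. For densities these classes did not follow the counting intervals. The 3.50 of HOXB with 100 kb on either side was classed as moved, though it lay inside the main interval of 0.937 to 4.80. A single ChIP library limits every value here, and a low peak of 20 fragments has an interval of 12.2 to 30.9.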
